A study of Mus musculus with 6 samples.

Results

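The genes of the mitochondrial ribosomal proteins were followed in aortas of mice that lacked interleukin-16 and apolipoprotein E and of mice that lacked apolipoprotein E alone. They were taken as every protein-coding gene whose symbol begins with Mrpl or Mrps followed by a digit, which gave 78 of the 55401 genes in the count table, 49 named Mrpl and 29 named Mrps. All 78 held enough counts to be tested, among 19833 tested genes. The lowest count of any of them in any library was 116.

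Mitochondria carry their own ribosome, which makes the few membrane-embedded subunits of the respiratory chain and ATP synthase that are encoded in mitochondrial DNA. Its RNA is mitochondrial, but its proteins are encoded in the nucleus, made in the cytosol and imported, so that respiratory capacity depends on both genomes. Some of these proteins descend from bacterial ribosomal proteins and others were added during the evolution of mitochondria. Large-subunit proteins surround the site of peptide bond formation and the tunnel through which the new chain leaves. Small-subunit proteins surround the site where the messenger RNA is decoded.

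The first group, IL16-/-ApoE-/- and called double mutants here, lacked the secreted cytokine interleukin-16 and apolipoprotein E, which clears remnant lipoproteins. The second group was ApoE-/-, so the loss of apolipoprotein E and the diet were common to both groups. From the age of 8 weeks, mice of both genotypes ate a high-fat diet during 24 weeks, and polyadenylated RNA of the aorta was sequenced in 3 samples per group. The comparison asks what the loss of interleukin-16 alters in the aorta after that diet. Strain, sex, which part of each gene was deleted, and whether a sample was 1 animal or a pool are not stated in the labels. P-values therefore measure no more than the spread among the samples sequenced, which could be technical. In bulk tissue, fewer cells of a type and less RNA per cell cannot be told apart.

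The double mutant libraries held 42861980 to 47208779 counts and the ApoE-/- libraries 65730552 to 85568269, so library totals of the groups lay apart. Il16 stood at 7.93 to 12.2 CPM (counts scaled to the library total after TMM adjustment) in the double mutants and at 15.1 to 28.7 CPM in ApoE-/-, a log2 fold change of -1.16 (SE 0.32, adjusted p = 0.163). Apoe, whose deletion both groups carry by their labels, stood at 137 to 183 CPM in the double mutants and at 20.9 to 45.0 CPM in ApoE-/-, a log2 fold change of 2.34 (SE 0.33, adjusted p = 0.0369). Counts over whole genes check the genotypes in part at most, and those of Apoe do not show its loss in the double mutant libraries. Kidney tubule genes were also found in these libraries and hardly in ApoE-/-, so every comparison is one of the libraries as labelled. The 3 ApoE-/- libraries differed more among themselves than the double mutants did, with biological coefficients of variation of 0.209 in the double mutants and 0.590 in ApoE-/-. ApoE-/- 1 stood apart, with 474 CPM of Xist and 0.143 CPM of the Y-linked Ddx3y, against 0.497 to 6.21 and 70.1 to 136 CPM in the other 5 libraries. It carried a female pattern and the others a male one, so sex was mixed within ApoE-/-. An effect of sex cannot be told apart from whatever else sets ApoE-/- 1 off. Counts of calls and most genes named are therefore also given without that library.

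Most mitoribosomal genes had a higher mean level in the double mutants, by small amounts. Log2 fold changes (double mutant over ApoE-/-) were positive for 73 of the 78 genes and ran from -0.73 to 2.14, with a median of 0.37 and quartiles of 0.19 and 0.60. Their SEs ran from 0.14 to 0.82. Among 15645 tested protein-coding genes the median was -0.06, and 44.5% were positive, against 93.6% of the mitoribosomal genes. None of the 78 passed edgeR's quasi-likelihood test at an adjusted p of 0.05 over all tested genes. The call rate over all tested genes was 1.14% higher and 0.0605% lower. The adjusted p of the 78 ran from 0.0528 to 0.988, and 17 had an unadjusted p under 0.05, all of them higher, which is 21.8% of the genes against 15.9% of all tested genes in either direction. DESeq2 called 8 of them higher and limma-voom called 2, beside 6.23% and 1.95% of all tested genes. Under RLE factors, upper-quartile factors and library totals 73 fold changes stayed positive, with medians of 0.38, 0.40 and 0.39.

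**Figure D1:**
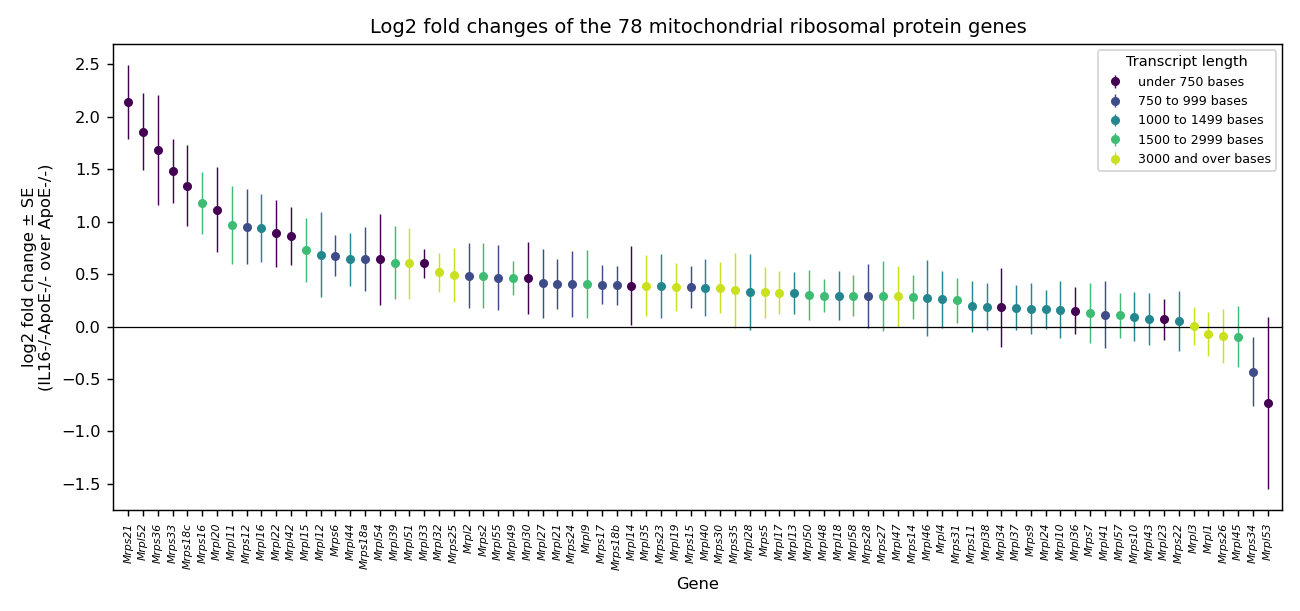
Log2 fold change of each of the 78 genes (double mutant over ApoE-/-, vertical axis, bars ± 1 SE, n = 3 and 3), ordered by size and coloured by transcript length in bases. Values run from 2.14 for Mrps21 to -0.73 for Mrpl53, 73 lie above 0, and the darkest points, transcripts under 750 bases, hold both ends.

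The order of the libraries was much the same from gene to gene. In 71 of the 78 genes both ApoE-/- 2 and ApoE-/- 3 lay below every double mutant library, against 30.6% of all tested genes. ApoE-/- 1 was the highest of its group in 77 genes, against 40.9% of all tested genes. It lay above every double mutant library in 38 genes, within their range in 18 and below it in 22. As a result the groups overlapped in 56 genes, and in 22 all double mutant libraries lay above all ApoE-/- libraries, which is 28.2%. That arrangement held for 14.9% of all tested genes, and the opposite one for 11.5% of tested genes and 0 mitoribosomal genes. Its share depended on transcript length and is given by length class further below. Relative to the mean of the double mutants, the median gene was at a ratio of 1.07 in ApoE-/- 1, 0.572 in ApoE-/- 2 and 0.682 in ApoE-/- 3.

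The summed level of the 78 genes showed the same picture. It was 2551, 2423 and 2383 CPM in double mutants 1, 2 and 3, and 2526, 1316 and 1608 CPM in ApoE-/- 1, 2 and 3. ApoE-/- 1 thus fell inside the range of the double mutants and the other two ApoE-/- libraries far below it. Both subunits shared in this. The 51 large-subunit genes summed to 1711, 1612 and 1593 CPM against 1733, 897 and 1089 CPM, and the 26 small-subunit genes to 798, 768 and 753 CPM against 768, 413 and 512 CPM. The double mutants agreed closely, with a median SD of log2 CPM of 0.0906 per gene against 0.546 in ApoE-/-. The SD was larger in ApoE-/- for 77 of the 78 genes.

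**Figure D2:**
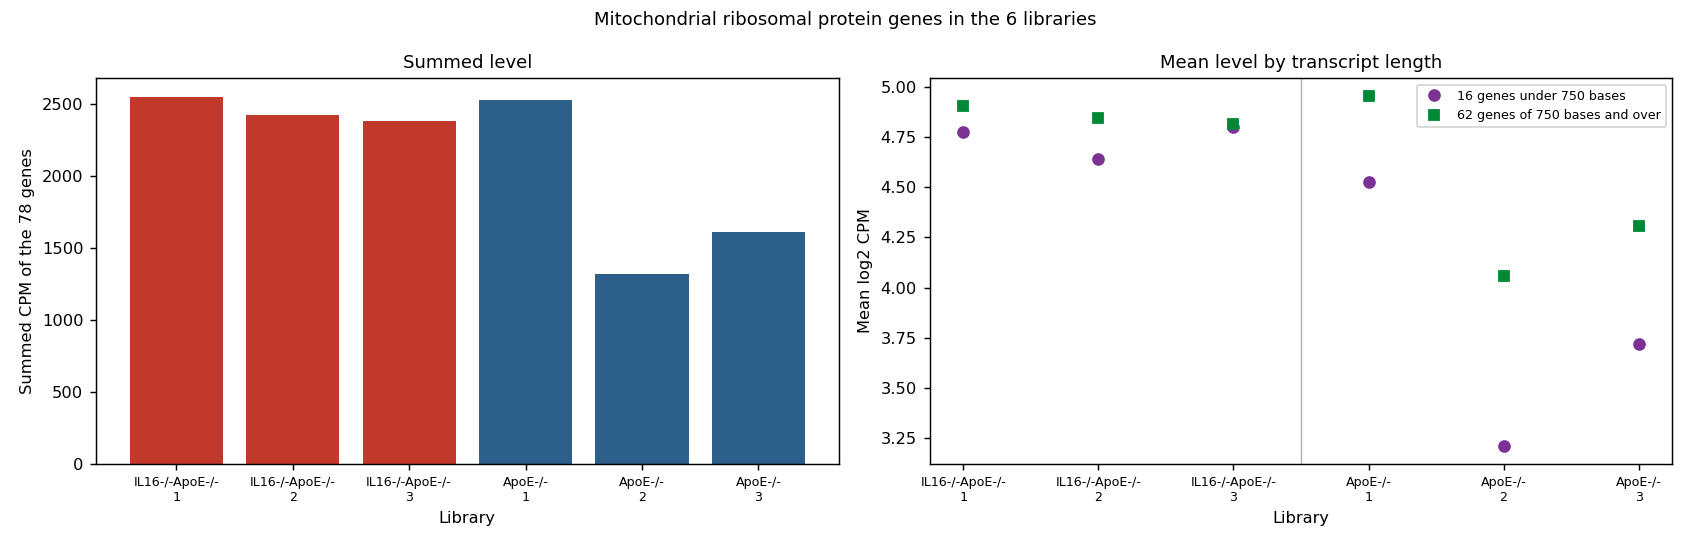
Left, summed CPM of the 78 genes in each library. Right, mean log2 CPM in each library of the 16 genes with transcripts under 750 bases (circles) and of the 62 others (squares). ApoE-/- 1, at 2526 CPM, sits with the double mutants at 2383 to 2551 CPM, ApoE-/- 2 and 3 lie at 1316 and 1608 CPM, and the short genes lie farther below the others in ApoE-/- 2 than in any double mutant library.

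Without ApoE-/- 1, which leaves 3 libraries against 2 of the same sex pattern, 48 of the 78 genes rose and 0 fell in edgeR's test. The call rate over 20177 tested genes was 13.1% higher and 12.8% lower, against 61.5% of the mitoribosomal genes higher. The rate depended on transcript length and is given by length class further below. All 78 fold changes were then positive, with a median of 0.65 against 0.01 over all tested genes. ApoE-/- 1 was the highest of its group in 77 of the 78 genes, so leaving it out was bound to raise most of their fold changes. The 48 comprised 33 large-subunit genes, 14 small-subunit genes and Mrps36. Without ApoE-/- 2 or ApoE-/- 3 the median was 0.18 and 0.27, with 64 and 70 positive and 0 called. Over all tested genes 108 and 182 were called there. Leaving out a double mutant library gave medians of 0.33 to 0.38 and 0 calls. Each of those fits also called 0 genes over all tested genes, so the 0 does not set the mitoribosomal genes apart. limma-voom with sample weights, which gives a less typical library less weight, called 39 of the genes higher beside 9.39% of tested genes, and 34 of the 39 were among the 48. The count of called genes therefore rests on how ApoE-/- 1 is treated.

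Among small-subunit genes the largest difference was in Mrps21, the homologue of bacterial S21 (ENSMUSG00000054312, GRCm38 chromosome 3, 95862634 to 95871519, minus strand). It stood at 67.8, 54.0 and 51.4 CPM in double mutants 1, 2 and 3, and at 20.3, 8.39 and 10.7 CPM in ApoE-/- 1, 2 and 3. The groups did not overlap, and the lowest double mutant library was above the highest ApoE-/- library, ApoE-/- 1. The log2 fold change was 2.14 (SE 0.35, adjusted p = 0.0528), just short of the threshold. The gene passed with upper-quartile factors (adjusted p = 0.0492), library totals (0.0410) and no filter on low counts (0.0295), as 1 mitoribosomal gene beside 1.25%, 1.37% and 0.828% of all genes tested there. Per kilobase of transcript it averaged 129 CPM per kb in the double mutants and 29.3 in ApoE-/-. It ranked first of the 78 in the double mutants but not in ApoE-/-, where Mrpl30 did. Over all 6 libraries the 78 genes ran from 3.14 to 79.3 CPM per kb, with a median of 19.0.

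Mrpl52, a large-subunit protein without a bacterial counterpart (chromosome 14, 54426909 to 54429756, plus strand), came next. It was at 19.6, 21.4 and 23.3 CPM in the double mutants and at 8.87, 3.30 and 5.53 CPM in ApoE-/- (log2 fold change 1.86, SE 0.37, adjusted p = 0.0845). Mrps33, a mitochondria-specific protein of the small subunit (chromosome 6, 39801804 to 39810988, minus strand), measured 30.9, 29.3 and 33.5 CPM against 16.5, 7.85 and 9.15 CPM (log2 fold change 1.48, SE 0.30, adjusted p = 0.0903). In both genes every double mutant library lay above every ApoE-/- library, and ApoE-/- 2 was the lowest. All 3 genes rose without ApoE-/- 1, with log2 fold changes of 2.60 for Mrps21 (SE 0.19, adjusted p = 0.00158), 2.28 for Mrpl52 (SE 0.27, adjusted p = 0.00400) and 1.88 for Mrps33 (SE 0.15, adjusted p = 0.00175).

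NRF1, ETS-family factors such as GABP, SP factors and YY1 are known to act on nuclear genes of mitochondrial proteins, and their motifs were searched for. The 150 bases before the RefSeq start of transcription (GRCm38.p6, 5′ to 3′ on the gene's strand) are shown for the 3 genes with the smallest p, Mrps21 (chr3:95871515-95871664, minus), Mrpl52 (chr14:54426759-54426908, plus) and Mrps33 (chr6:39810937-39811086, minus), and for Mrpl3 (chr9:105053118-105053267, plus), whose log2 fold change was nearest 0. Capitals mark matches on either strand, an NRF1 match in Mrps21 and an ETS match in Mrpl52, both on the opposite strand, an SP match on each strand in Mrps33, and an ETS match on the printed strand in Mrpl3.
Mrps21: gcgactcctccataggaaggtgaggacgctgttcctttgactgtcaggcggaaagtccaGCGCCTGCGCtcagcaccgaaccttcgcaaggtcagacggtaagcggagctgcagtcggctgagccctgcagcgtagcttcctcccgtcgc
Mrpl52: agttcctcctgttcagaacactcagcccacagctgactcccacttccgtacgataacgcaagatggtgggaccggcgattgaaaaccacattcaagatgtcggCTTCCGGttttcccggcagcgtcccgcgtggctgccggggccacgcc
Mrps33: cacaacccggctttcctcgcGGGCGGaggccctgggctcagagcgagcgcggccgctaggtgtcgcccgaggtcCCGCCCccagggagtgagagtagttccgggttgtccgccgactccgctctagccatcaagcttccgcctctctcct
Mrpl3: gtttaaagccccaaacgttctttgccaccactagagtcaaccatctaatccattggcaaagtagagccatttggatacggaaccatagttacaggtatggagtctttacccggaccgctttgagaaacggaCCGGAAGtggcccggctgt

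RefSeq windows were at hand for 69 of the 78 genes, 75 windows in all, and the 250 bases before each start were searched on both strands, each motif on its own, so that matches may overlap. CCGGAAG (ETS factors) was found in 24.0% of these windows and in 6.91% of 32851 windows of all genes. GCGCA followed by any base and GCGC (NRF1) was in 13.3% against 3.74%, GGGCGG (SP factors) in 49.3% against 32.7%, and AAGATGGCG (YY1) in 2.67% against 0.606%. The median log2 fold change of genes with and without a match was 0.30 and 0.39 for ETS, 0.49 and 0.37 for NRF1, and 0.37 and 0.40 for SP. For YY1, matched in only 2 genes, it was 0.17 and 0.39. These medians are descriptions of letters and levels, and a match is not shown to be a bound site. Mrpl3 itself, a large-subunit protein whose human counterpart is mutated in a cardiomyopathy, was at 42.7, 43.2 and 42.0 CPM in the double mutants and at 51.4, 33.3 and 42.5 CPM in ApoE-/- (log2 fold change 0.01, SE 0.18, adjusted p = 0.988).

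**Figure D3:**
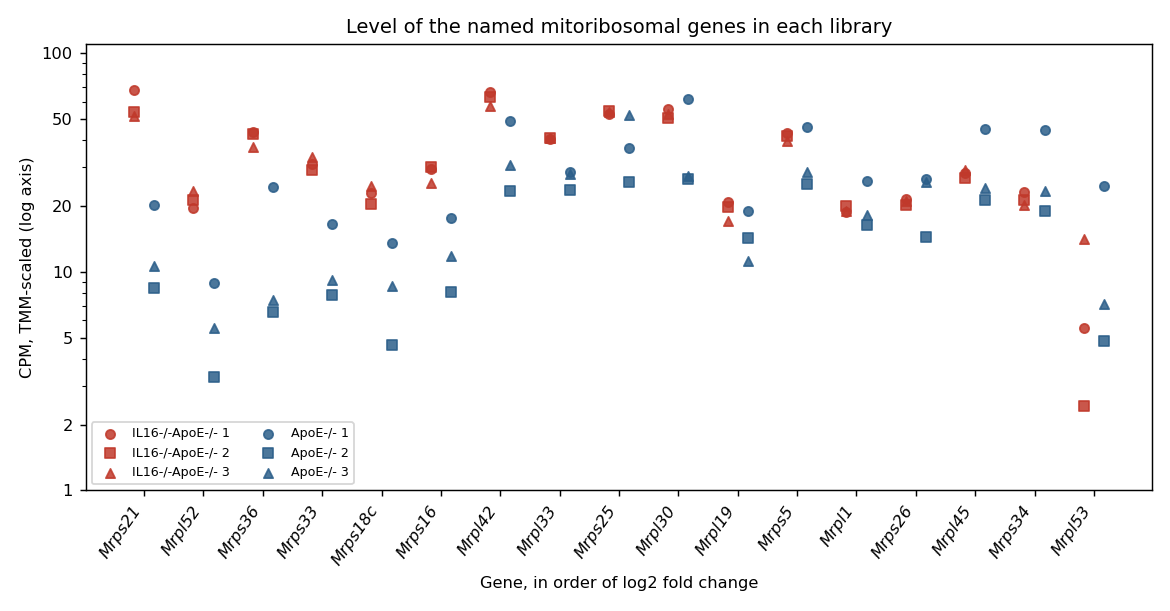
CPM (log axis) of the 17 genes named by rule in each library, double mutants left and ApoE-/- right within each gene, with 1 symbol per replicate number, which does not pair libraries. From Mrps21 to Mrps25 the groups do not overlap. ApoE-/- 1 lies above every double mutant library for Mrpl30, Mrps5, Mrpl1, Mrps26, Mrpl45, Mrps34 and Mrpl53.

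The bacterial protein S18 has a set of mitochondrial relatives, and all had positive fold changes. Mrps18c, of the small subunit (chromosome 5, 100798627 to 100804471, plus strand), was at 22.9, 20.4 and 24.6 CPM in the double mutants and at 13.6, 4.60 and 8.59 CPM in ApoE-/- (log2 fold change 1.34, SE 0.38, adjusted p = 0.177). Its exons overlap Gm43511 on the same strand over 250 bases. Mrps18b had a log2 fold change of 0.39 (SE 0.18, adjusted p = 0.356). Mrps18a, which despite its name sits in the large subunit, had one of 0.64 (SE 0.31, adjusted p = 0.365). All 3 rose without ApoE-/- 1, by 1.78, 0.57 and 1.07 (adjusted p = 0.0103, 0.0205 and 0.00390).

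Mrps16, the homologue of bacterial S16 and a gene whose loss in people impairs the respiratory chain, showed the largest difference among transcripts of 750 bases and over (2572 bases, chromosome 14, 20389304 to 20393634, minus strand). It was at 29.4, 30.0 and 25.5 CPM in the double mutants against 17.6, 8.05 and 11.8 CPM in ApoE-/- (log2 fold change 1.18, SE 0.30, adjusted p = 0.136). Mrps12, whose bacterial homologue lies at the decoding centre, was at 14.1, 13.6 and 14.4 CPM against 9.83, 3.80 and 8.09 CPM (log2 fold change 0.95, SE 0.36, adjusted p = 0.277). Neither gene's groups overlapped. Both rose without ApoE-/- 1 (log2 fold changes 1.51 and 1.24, adjusted p = 0.00601 and 0.0438).

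Mrps36 carries a mitoribosomal name, but its product is known as a component of the 2-oxoglutarate dehydrogenase complex of the citric acid cycle. It was at 43.3, 42.5 and 37.3 CPM in the double mutants and at 24.5, 6.54 and 7.39 CPM in ApoE-/- (log2 fold change 1.68, SE 0.52, adjusted p = 0.214). Its level in ApoE-/- 1 was several-fold that of ApoE-/- 2 and 3. When ApoE-/- 1 was left out, Mrps36 rose by 2.56 (SE 0.15, adjusted p = 0.000869), the smallest adjusted p of the 78. Annotated pseudogenes of Mrps36 held few counts, 19, 32 and 18 against 2, 2 and 5 for Mrps36-ps2 and 15, 38 and 11 against 17, 31 and 29 for Mrps36-ps1, but reads could be split between such copies and the value is uncertain to that extent. Mrpl23 and Mrpl48 also have named pseudogenes.

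The stalk of the large subunit recruits translation factors, and the 3 of its genes named here differed in size of change. Mrpl12, the homologue of L7/L12, was at 74.2, 71.8 and 64.1 CPM in the double mutants against 73.3, 23.9 and 33.3 CPM in ApoE-/- (log2 fold change 0.69, SE 0.40, adjusted p = 0.441). ApoE-/- 1 lay inside the range of the double mutants. Mrpl11, at the stalk base, had a log2 fold change of 0.97 (SE 0.37, adjusted p = 0.283) and no overlap between the groups. Mrpl10, which anchors Mrpl12, had one of 0.16 (SE 0.27, adjusted p = 0.791). These 3 genes rose without ApoE-/- 1, Mrpl12 by 1.29, Mrpl11 by 1.50 and Mrpl10 by 0.52 (adjusted p = 0.00565, 0.00367 and 0.0190).

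Around the exit tunnel, where new chains meet the inner membrane, most fold changes were small. Mrpl45, which ties the ribosome to that membrane, was at 28.4, 27.0 and 29.3 CPM in the double mutants and at 44.8, 21.3 and 24.3 CPM in ApoE-/- (log2 fold change -0.10, SE 0.29, adjusted p = 0.891). The double mutants lay between ApoE-/- 1 above and the other two below. The homologues of bacterial L22, L23, L24 and L29, which line the tunnel exit, had log2 fold changes of 0.89 (Mrpl22, SE 0.32), 0.07 (Mrpl23, SE 0.20), 0.16 (Mrpl24, SE 0.19) and 0.29 (Mrpl47, SE 0.29), with adjusted p from 0.262 to 0.882. Stalk and tunnel genes were picked for their roles after their values were known. Mrpl22 and Mrpl47 rose without ApoE-/- 1 (adjusted p = 0.0285 and 0.0350) and Mrpl23, Mrpl24 and Mrpl45 did not pass (0.522, 0.324 and 0.123).

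Mrpl42, Mrpl33 and Mrpl30 were among the most abundant of the 78 per kilobase in both groups. They averaged 94.3, 84.9 and 80.1 CPM per kb in the double mutants and 51.8, 55.9 and 58.1 in ApoE-/-. Mrpl42, without a bacterial counterpart, reached 66.4, 63.1 and 57.5 CPM in the double mutants against 48.7, 23.4 and 30.6 CPM in ApoE-/- (log2 fold change 0.86, SE 0.28, adjusted p = 0.222). Mrpl33, the homologue of bacterial L33, was at 40.3, 40.7 and 40.7 CPM against 28.5, 23.6 and 28.1 CPM (log2 fold change 0.60, SE 0.14, adjusted p = 0.115). It had the smallest SE of the 78, and ApoE-/- 1 did not stand apart there. Its exons overlap Gm43809 on the same strand over 261 bases. Mrpl30 was at 55.7, 50.7 and 52.6 CPM against 61.4, 26.6 and 27.3 CPM (log2 fold change 0.46, SE 0.34, adjusted p = 0.533), with ApoE-/- 1 above every double mutant library. All 3 rose without ApoE-/- 1, Mrpl42 by 1.21, Mrpl33 by 0.65 and Mrpl30 by 0.97 (adjusted p = 0.00491, 0.0144 and 0.00322).

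Negative fold changes were found in 5 genes, none of them called. Mrpl53 had the most negative value and the largest SE (log2 fold change -0.73, SE 0.82, adjusted p = 0.679). Levels were 5.55, 2.44 and 14.1 CPM in the double mutants and 24.5, 4.82 and 7.13 CPM in ApoE-/-, so libraries of both groups were scattered. All 695 bases of its transcript overlap the predicted gene Gm42688 on the same strand, and reads of the 2 genes cannot be told apart. Mrps34, a small-subunit gene mutated in human Leigh syndrome, was at 23.0, 21.2 and 20.2 CPM against 44.7, 19.0 and 23.3 CPM (log2 fold change -0.43, SE 0.33, adjusted p = 0.544). It overlaps Nme3 on its own strand and Mapk8ip3 on the other. The other 3 were Mrpl45, Mrps26 (-0.09, SE 0.26) and Mrpl1 (-0.07, SE 0.21). When ApoE-/- 1 was left out all 5 were positive, at 0.29 for Mrpl53, 0.02 for Mrps34, 0.31 for Mrpl45, 0.06 for Mrps26 and 0.15 for Mrpl1, and none passed.

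Exons of 33 of the 78 genes overlap another annotated gene, 8 on the same strand and 28 on the opposite one. Their median log2 fold change was 0.32, against 0.39 in the 45 genes without overlap. By ancestry, the 47 genes with a bacterial homologue had a median of 0.39, 46 of them positive, and the 30 mitochondria-specific genes a median of 0.30, 26 of them positive. Large and small subunits had medians of 0.37 and 0.36. No difference between these classes was tested.

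Transcript length, taken as the median over a gene's annotated basic transcripts, ordered part of this variation. The 16 genes with transcripts under 750 bases had a median log2 fold change of 0.75, and 15 of the 16 were positive. Medians were 0.41 for the 14 genes of 750 to under 1000 bases, 0.26 for 19 of 1000 to under 1500 bases, 0.30 for 16 of 1500 to under 3000 bases and 0.34 for the 13 of 3000 bases and over. All protein-coding genes in the same length classes had medians of 0.68, 0.23, 0.11, -0.04 and -0.18. The short mitoribosomal genes were thus near the short genes at large, 0.07 above their median, with 8 of the 16 above it. In the longest class the difference was 0.52, and all 13 lay above the class median. In all, 64 of the 78 exceeded the median of their length class. Of the short genes, 9 of 16 had groups that did not overlap, with the double mutants higher, against 47.7% of protein-coding genes of that length. In the classes that followed it was 4 of 14, 2 of 19, 5 of 16 and 2 of 13, against 25.7%, 17.1%, 11.6% and 8.03%.

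Across the 78 genes, which are not independent replicates, log2 fold change and log2 length had a Spearman rho of -0.28, a Pearson r of -0.33 and a slope of -0.16 per doubling of length. Over all 15645 protein-coding genes rho was -0.26 and the slope -0.22. Among the mitoribosomal genes the relation lay at the short end. In the 62 genes of 750 bases and over rho was -0.10 with a slope of -0.02, and in the 16 shorter ones rho was -0.46 with a slope of -1.62. These 16 ran only from 440.5 to 722 bases, so that slope per doubling reaches beyond their range. They include Mrpl53, whose reads cannot be told apart from those of Gm42688. With the principal or longest transcript as the measure rho was -0.24 or -0.22, and with the span of the gene on the chromosome, introns included, it was -0.03. All points share the same 6 libraries.

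**Figure D4:**
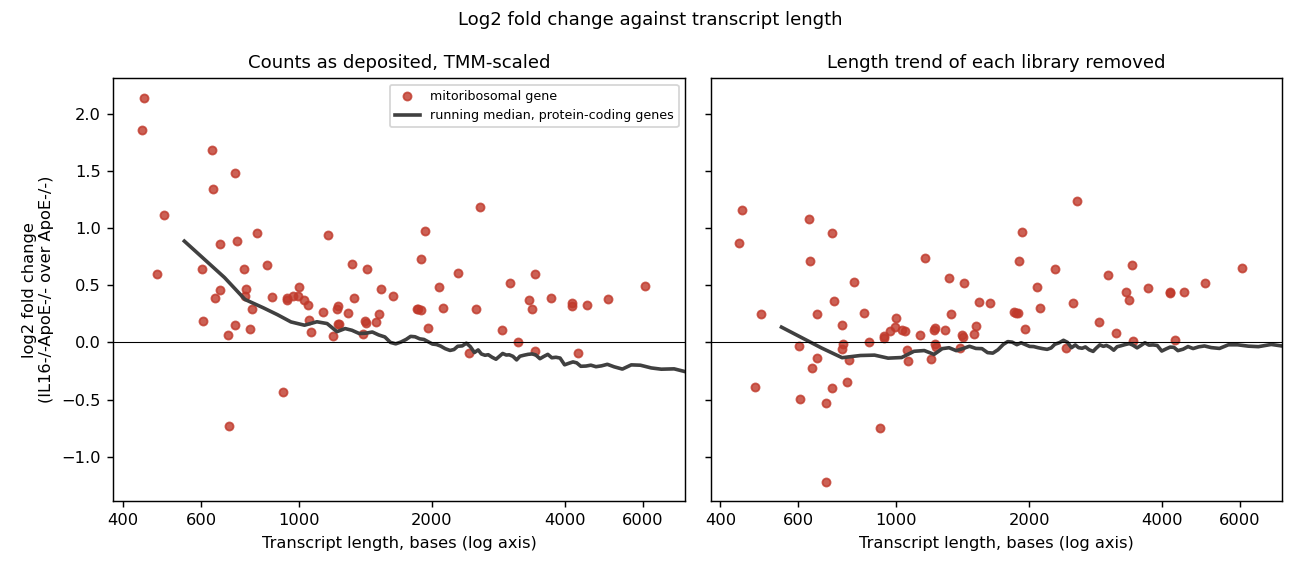
Log2 fold change (double mutant over ApoE-/-) against transcript length (bases, log axis) for the 78 genes (points) with the running median of protein-coding genes (line), before (left) and after (right) the length trend of each library was removed. On the left the line is highest for the shortest transcripts and declines with length. The highest points also lie at short lengths, and the points stay above the line at long ones. On the right the line is near 0 and the median of the points is 0.15.

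The length trend differed between libraries and not only between groups. Protein-coding genes under 750 bases had a median deviation from their 6-library mean of 0.41, 0.46 and 0.44 log2 units in double mutants 1, 2 and 3, and of -0.01, -0.80 and -0.43 in ApoE-/- 1, 2 and 3. The short mitoribosomal genes had a mean log2 CPM of 4.78, 4.64 and 4.80 against 4.53, 3.21 and 3.72. The 62 longer ones stood at 4.90, 4.84 and 4.81 against 4.95, 4.06 and 4.30. The short genes therefore lay below the longer ones by 0.13, 0.20 and 0.01 in the double mutants and by 0.43, 0.85 and 0.59 in ApoE-/-. In ApoE-/- 1 the longer genes were at a median ratio of 1.07 to the double mutant mean and the short ones at 0.773. In ApoE-/- 2 these were 0.595 and 0.349, and in ApoE-/- 3 they were 0.688 and 0.537.

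When the trend of each library on transcript length was removed, 58 of the 78 genes had a positive log2 fold change, with a median of 0.15 against -0.06 over all tested genes. None was called, beside 0.711% of all tested genes called higher, and the smallest adjusted p was 0.116. By length class the medians of the mitoribosomal genes became 0.11, 0.05, 0.08, 0.32 and 0.44, against -0.02, -0.13, -0.07, -0.04 and -0.04 for protein-coding genes. The relation to length turned, with rho at 0.35. Mrps21, Mrpl52 and Mrps36 had log2 fold changes of 1.15, 0.87 and 1.08 after removal, lower than with the trend kept. The long Mrps16 had 1.24, and Mrpl33 turned to -0.39.

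With the trend removed and ApoE-/- 1 left out, 26 of the 78 genes were called higher and 3 lower, beside 10.3% and 11% of all tested genes, and the median was 0.34 with 67 positive. Of the 26, 24 were among the 48 genes that rose without ApoE-/- 1 when the trend was kept. Examples are Mrps16 (log2 fold change 1.54, adjusted p = 0.00824), Mrpl11 (1.40, adjusted p = 0.00544) and Mrps35 (1.05, adjusted p = 0.00537). The 3 lower were Mrpl23, Mrpl33 and Mrps34 (log2 fold changes -0.58, -0.54 and -0.47). Mrpl33 is called in opposite directions with and without the trend, at 0.65 (adjusted p = 0.0144) and -0.54 (adjusted p = 0.0155), so its direction depends on that step. Without ApoE-/- 1 and with the trend kept, the length classes had medians of 1.16, 0.71, 0.52, 0.57 and 0.60, against 1.00, 0.46, 0.27, 0.02 and -0.22 over protein-coding genes. From short to long, 11 of 16, 10 of 14, 9 of 19, 12 of 16 and 6 of 13 were called higher there. The rates over protein-coding genes of the same classes were 44.7%, 29.0%, 19.6%, 13.2% and 7.30%.

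The 3 longest of the 78 had log2 fold changes of 0.65 (Mrps25), 0.52 (Mrpl19) and 0.44 (Mrps5) with the trend removed, higher than with it kept. Mrps25, a mitochondria-specific small-subunit protein with a transcript of 6073 bases, was at 52.5, 54.6 and 53.9 CPM in the double mutants and at 36.8, 25.8 and 51.9 CPM in ApoE-/- (log2 fold change 0.49, SE 0.26, adjusted p = 0.395). Here ApoE-/- 3, not ApoE-/- 1, was highest of its group, which happened in no other mitoribosomal gene. Its exons overlap Nr2c2 on the opposite strand over 4590 bases, and Nr2c2 had a log2 fold change of -0.72. Mrpl19 (5000 bases) was at 20.9, 19.7 and 17.1 CPM against 19.0, 14.2 and 11.2 CPM (log2 fold change 0.38, SE 0.23, adjusted p = 0.457). Its exons overlap Gcfc2 on the opposite strand over 1962 bases, and Gcfc2 had a log2 fold change of -0.93. Mrps5 (4481 bases) was at 43.2, 41.9 and 39.7 CPM against 45.7, 25.2 and 28.5 CPM (log2 fold change 0.33, SE 0.24, adjusted p = 0.531). With ApoE-/- 1 left out, Mrps5 rose by 0.63 (adjusted p = 0.0137) and Mrps25 and Mrpl19 did not pass (0.274 and 0.0576).

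Lists of other genes of mitochondrial translation, ribosome assembly, transcription and biogenesis had medians of -0.06 to 0.19. With the length trend removed their medians were -0.06 to 0.23, where the 78 mitoribosomal genes had 0.15. The lowest value of both ranges was that of transcription and biogenesis. Another 6 listed genes of the mitoribosome have symbols outside the rule, among them Chchd1, the GTP-binding Dap3 and Oxa1l. Oxa1l is a membrane insertase rather than a ribosomal protein. The 6 had a median log2 fold change of 0.19, with 5 positive and 0 called. The one with the smallest p was Chchd1 (0.56, SE 0.25, adjusted p = 0.338). Of 14 tested translation and RNA-stabilising factors 1 rose and 0 fell, beside 1.14% and 0.0605% of all tested genes, with a median of 0.17, or 0.23 with the length trend removed. That 1 was Slirp, which with Lrpprc stabilises mitochondrial messenger RNAs. Slirp was at 23.8, 23.1 and 24.4 CPM in the double mutants and at 8.10, 4.99 and 7.53 CPM in ApoE-/- (log2 fold change 1.79, SE 0.23, adjusted p = 0.0259). ApoE-/- 1 was no exception there. With the length trend removed it was 1.73 (adjusted p = 0.0233), and without double mutant 1, 2 or 3 the call was lost at a like size (adjusted p = 0.194, 0.178 and 0.196). Its adjusted p over 20 alternatives ran from 7.38e-10 to 0.262.

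Of the 17 mitochondrial aminoacyl-tRNA synthetases 0 were called and 11 were positive, with a median of 0.07. The 25 assembly factors had 0 called, 14 positive and a median of 0.09, and the 15 genes of mitochondrial transcription and biogenesis 0 called, 6 positive and a median of -0.06. Those with the smallest p were Aars2 (log2 fold change -0.46, adjusted p = 0.250), C1qbp (0.75, adjusted p = 0.270) and Polg (-0.40, adjusted p = 0.281). Without ApoE-/- 1 the counts higher were 3 of 6 outside-rule genes, with Oxa1l among the 3, and 7 of 14 factors. They were 1 of 17 synthetases, 4 of 25 assembly factors and 4 of 15 biogenesis genes, with 1 lower in each of the last 3. Over all tested genes 13.1% were higher and 12.8% lower. These lists were longer in transcript, with medians of 1525 to 2682 bases, and differences between lists were not tested.

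The messages this ribosome translates gave medians on both sides of 0. Of the 13 mitochondrially encoded messenger RNAs 0 were called, 8 were positive and the median log2 fold change was 0.03. The median was 0.24 without ApoE-/- 1 and -0.35 with the length trend removed. The one with the smallest p was mt-Nd3, a subunit of complex I with a very short message (2.16, SE 0.43, adjusted p = 0.0845), the 1 that rose without ApoE-/- 1 (2.55, adjusted p = 0.00508). Transcripts of mitochondrial DNA took 15.8%, 13.9% and 15.5% of counts in double mutants 1, 2 and 3, and 18.4%, 10.5% and 16.6% in ApoE-/- 1, 2 and 3. ApoE-/- 2 was lowest there as in most mitoribosomal genes, while ApoE-/- 3 was not low.

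Cytosolic ribosomal proteins, the counterparts in the cytosol, are encoded by short transcripts (median 774 bases). Of 81 tested, 13 rose and 0 fell, beside 1.14% and 0.0605% of all tested genes, 67 were positive and the median log2 fold change was 0.83. Without ApoE-/- 1, 46 of the 81 rose, beside 13.1% of tested genes, and the median was 1.05. Of all protein-coding genes under 750 bases 44.7% were called higher there, and of those of 750 to under 1000 bases 29.0%. With the length trend removed the median was 0.32. Those with the smallest p were Rpl38, at 79.2, 92.7 and 91.1 CPM against 11.0, 6.41 and 9.99 CPM (log2 fold change 3.26, SE 0.24, adjusted p = 0.00745), Rps28 (2.96, adjusted p = 0.0125) and Rpl37 (2.97, adjusted p = 0.0133). All 3 lost their calls without any 1 double mutant library, with adjusted p of 0.0955 to 0.115 for Rpl38, 0.118 to 0.133 for Rps28 and 0.131 to 0.137 for Rpl37. Many of these genes have processed pseudogenes, and their counts are uncertain to that extent.

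Markers of cell types also differed between the libraries. The 12 adipocyte markers summed to 7457, 7559 and 6896 CPM in double mutants 1, 2 and 3, and to 7589, 1363 and 850 CPM in ApoE-/- 1, 2 and 3, with the leptin gene Lep the 1 called. As in most mitoribosomal genes, ApoE-/- 2 and 3 lay below every double mutant library, and ApoE-/- 1 did not, but ApoE-/- 3 and not ApoE-/- 2 was the lowest. Without ApoE-/- 1, 10 of the 12 rose, where 13.1% of all tested genes were called higher and 12.8% lower. With every library in, log2 fold changes were positive for 10 of the 12 and negative for Dio2 (-0.59) and Elovl3 (-1.12). The 10 smooth muscle markers, which define the aortic wall, ran the other way at 10423, 9204 and 10172 CPM against 4605, 20834 and 29793 CPM, with 0 called with every library in and 9 lower without ApoE-/- 1. The 10 macrophage markers stood at 5028, 7105 and 5362 CPM against 5559, 2697 and 464 CPM, with 0 called, and 1 higher without ApoE-/- 1. Most of that sum was Lyz2, at 3527, 5095 and 3802 CPM against 3561, 1750 and 259 CPM. Log2 fold changes were positive for 8 of the 10 and negative for Mrc1 (-0.58) and Csf1r (-0.002).

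Of 12 kidney tubule markers 9 rose, beside 1.14% of all tested genes. The 12 summed to 544, 523 and 578 CPM against 2.55, 2.95 and 1.74 CPM. Among them 7 (Kap, Umod, Slc12a1, Acsm2, Miox, Slc22a12 and Slc5a2) had no count in any ApoE-/- library. Cardiac muscle markers summed to 482, 251 and 417 CPM against 101, 97.3 and 127 CPM (2 of 10 rose, Tnnt2 and Sln), skeletal muscle markers to 88.7, 21.9 and 370 CPM against 12, 4.93 and 7.51 CPM (0 of 10), and endothelial markers to 1359, 1362 and 1339 CPM against 1173, 780 and 693 CPM (0 of 9). Lymphocyte markers summed to 41.2, 27.3 and 53.4 CPM against 40.8, 19.8 and 4.13 CPM (0 of 9). Outside the kidney list no marker was at 0 in all libraries of a group. When ApoE-/- 1 was left out the markers called higher were 11 of 12 for kidney tubule and 8 of 10 for cardiac muscle. The cardiac marker Ryr2 was called lower (log2 fold change -1.44). For skeletal muscle, endothelium and lymphocytes 6 of 10, 6 of 9 and 3 of 9 were called higher. Over all tested genes 13.1% were called higher there and 12.8% lower. The part of these tissues in the levels of the mitoribosomal genes was not tested.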

How the data were processed

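Aortic polyadenylated RNA of 3 IL16-/-ApoE-/- and 3 ApoE-/- samples was sequenced, with groups taken from the sample titles. The authors deposited 1 table of raw read counts per gene, whole numbers without normalization, judged from the values. All 6 value columns matched a sample. Per the submitters' processing notes, the tools were cutadapt, HISAT2 and StringTie, with no versions. Libraries mark the strand, per the labels' protocols. Genome build, annotation, counting program and strand setting were not stated, so overlapping genes and near-identical copies may share reads.

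Symbols (55141 of 55401 IDs matched), positions and transcript lengths came from GENCODE M21 (GRCm38), promoters from RefSeq (GRCm38.p6). Genes were filtered with filterByExpr (minimum count 10, minimum total 15), scaled by TMM and compared with edgeR's quasi-likelihood test (two-sided, robust, without covariates), adjusted by Benjamini-Hochberg over all tested genes and a threshold of 0.05. SE is the log2 fold change divided by the square root of F. For trend removal, a loess curve (span 0.3) of each library's log2 CPM deviation (prior count 2) on log2 transcript length was used as an offset. Related lists and markers were written by hand. The members, the lists and the tests were chosen with earlier results of these data known. Genes named by rule were those called (0), up to 6 with the largest fold changes in each direction (5 were negative), the 3 longest and 3 shortest transcripts and the 4 highest per kilobase. Others were named for their role, their place in a call or their p after values were seen. From related lists, up to 3 called genes or the 1 with the smallest p are named.

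Same-numbered samples did not deviate together (r of -0.04, -0.03 and -0.01 for numbers 1, 2 and 3), so numbers were not treated as pairs. Alternatives were other scalings and filters, DESeq2, limma-voom with and without sample weights, trend removal, a replicate block, thinning to 42861980 counts, and leaving out each library. The scripts were tested on simulated data. Software was R 4.3.3, edgeR 4.0.16, limma 3.58.1, DESeq2 1.42.0 and Python 3.11.15 with matplotlib 3.10.9.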

Additional observations from a re-analysis of the deposited data

How the results depend on the processing

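With every library in, edgeR called 0 mitoribosomal genes and 238 genes in all. Leaving out each library in turn gave 0 to 48 mitoribosomal genes and 0 to 5231 in all, with 48 and 5231 without ApoE-/- 1. The counts were 1 mitoribosomal gene each with upper-quartile factors, library totals and no filter, 8 of 1697 genes in DESeq2, 2 of 409 in limma-voom and 39 of 3351 with sample weights. With the length trend removed and ApoE-/- 1 left out it was 29 of 4304. The replicate block gave 0 in all, with or without the trend, and its median of 0.42 was close to 0.37 without pairing. Thinned counts gave 0 calls, as without thinning, and a median of 0.37. Thinning could not lower a count of 0, and a part of the gap in totals in the levels was not tested. The median stayed positive in every alternative run, from 0.15 with the trend removed to 0.68 with sample weights.

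The relation to length kept its sign under the scaling, filter and leave-one-out alternatives (rho -0.33 to -0.23 over libraries left out). It turned to 0.35 with the trend removed, 0.36 with block and trend, 0.39 with ApoE-/- 1 out as well and 0.33 with the trend on the principal transcript, an alternative chosen after seeing the data, and by gene span it was -0.034. For turned relations the removal itself takes out the trend of all genes.

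Of the 17 genes named by rule, 7 changed sign in some alternative. Leaving libraries out, log2 fold changes ran from -1.61 to 0.29 for Mrpl53, -0.66 to 0.024 for Mrps34, -0.29 to 0.31 for Mrpl45, -0.32 to 0.056 for Mrps26 and -0.20 to 0.15 for Mrpl1. With sample weights Mrpl45, Mrps26 and Mrpl1 had 0.26, 0.28 and 0.13. With the trend removed Mrps26, Mrpl1, Mrpl33 and Mrpl30 had 0.021, 0.013, -0.39 and -0.14, and by principal transcript 0.013, 0.0036, -0.39 and -0.18. With block and trend Mrpl45, Mrps26, Mrpl1, Mrpl33 and Mrpl30 had 0.022, 0.094, 0.050, -0.38 and -0.084. With the trend removed and ApoE-/- 1 out Mrpl45, Mrps26, Mrpl1 and Mrpl33 had 0.32, 0.21, 0.25 and -0.54. The cause was not tested.

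Counts were 116 and more per gene and library, with the lowest for Mrpl53 in a double mutant library. How counting error compares with the spread of the ApoE-/- libraries was not tested.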
